A study of Mus musculus with 12 samples.

Results

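The genes described here encode the enzymes that build cholesterol and fatty acids from acetyl-CoA, with the proteins that sense sterols and carry them inside the cell. They were taken as a list of 34 gene symbols chosen by function, with earlier results of these data known. All 34 were found among the 47643 gene identifiers counted in each library. By role, 8 genes lead from acetyl-CoA to squalene, 10 turn squalene into cholesterol, 5 sense or carry sterols, 4 make palmitate, and 7 desaturate or elongate fatty acids. The libraries were 12 bulk polyA RNA-seq samples of mouse bone marrow cells on a C57BL/6 background, 2 in each of 6 groups. Sorted monocytes were measured before culture, after 1 day and after 2 days with the cytokines GM-CSF and IL-4, a culture in which monocytes become dendritic cells. Each stage was taken from WT mice and from Nr4a3 KO mice. Nr4a3 encodes an orphan nuclear receptor, and the series asked what it does in this differentiation. All cultured groups carried both cytokines, so no cultured group without them was compared. The labels used here give neither the design of the KO allele nor the age, sex or number of animals behind a library, and they place the replicates in separate experiments.

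Cells build cholesterol through mevalonate and squalene, and the same route supplies the isoprenoid groups attached to proteins. When sterols in the endoplasmic reticulum run low, SCAP escorts the SREBP transcription factors (genes Srebf1 and Srebf2) to the Golgi apparatus, where they are cut and released to switch on many genes of both pathways. INSIG proteins hold SCAP back when sterols are plentiful. Fatty acid synthase makes palmitate, which desaturases and elongases turn into the unsaturated and longer chains of membrane lipids, and macrophages and dendritic cells are known to change both pathways when they differentiate or are activated.

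Promoter sequence was examined because many genes of the 2 pathways carry SREBP sites and the neighbouring CCAAT boxes bound by NF-Y. RefSeq windows on GRCm38.p6, from 250 bases before to 50 bases after a gene's start, were matched by symbol for 27 of the 34 genes, and Fdps, Fdft1, Sqle, Stard4, Scd1, Scd2 and Fads1 had no entry. The 5 stretches below lie before the annotated start. They are shown because they hold the motifs searched and belong to genes whose level rose during culture. Hmgcs1 lies at chr13:119690114-119690233 on the plus strand, Srebf2 at chr15:82147061-82147180 on the plus strand. Insig1 lies at chr5:28071243-28071362 on the plus strand, Hsd17b7 at chr1:169969251-169969370 on the minus strand and Fasn at chr11:120824548-120824667 on the minus strand. Capitals mark TCACCCCA (a sterol regulatory element sequence), CACGTG (an E-box) and CCAAT or its reverse complement ATTGG, each read 5′ to 3′ on the gene's strand.
Hmgcs1: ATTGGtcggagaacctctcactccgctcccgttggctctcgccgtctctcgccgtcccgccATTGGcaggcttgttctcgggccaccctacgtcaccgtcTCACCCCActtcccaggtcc
Srebf2: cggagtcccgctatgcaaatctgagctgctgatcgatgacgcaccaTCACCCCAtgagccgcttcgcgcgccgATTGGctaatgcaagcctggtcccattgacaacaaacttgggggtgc
Insig1: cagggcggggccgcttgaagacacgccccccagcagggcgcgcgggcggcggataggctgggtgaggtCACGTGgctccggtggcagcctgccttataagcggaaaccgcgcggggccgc
Hsd17b7: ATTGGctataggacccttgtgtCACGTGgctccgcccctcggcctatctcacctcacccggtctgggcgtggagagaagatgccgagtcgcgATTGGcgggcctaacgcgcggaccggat
Fasn: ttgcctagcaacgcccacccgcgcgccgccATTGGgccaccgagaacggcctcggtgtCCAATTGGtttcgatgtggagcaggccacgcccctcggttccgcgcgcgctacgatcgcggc
TCACCCCA, searched on both strands, was present in 2 of the 27 matched genes (7.41%), Hmgcs1 and Srebf2, and in 1.68% of the 9769 tested genes with a window. CACGTG, which reads the same on both strands, was present in 6 of 27 (22.2%) against 11.7% of tested genes. CCAAT on either strand was present in 22 of 27 (81.5%) against 43% of tested genes and 37.4% of all 32851 windows. In Fasn a CCAAT and an ATTGG overlap, which gives one longer run of capitals. Among matched genes, 14 were higher in WT cells at day 2 than in WT monocytes and 13 were not called in that comparison. CCAAT was found in 12 of the 14 and in 10 of the 13, so the motif did not separate the 2 kinds. CACGTG was found in 2 of the 14 and in 4 of the 13, although both CACGTG stretches shown come from rising genes. TCACCCCA was found in 2 of the 14 and in 0 of the 13. The motifs were picked for this description from general knowledge of the pathway, and a match of letters is not a measured binding site.

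The libraries held 5905266 to 18447405 reads counted in genes. The Nr4a3 transcript was at 1287 and 1358 CPM (a gene's reads scaled to the size of the library, with edgeR's TMM factors) in WT day 2 and at 39.0 and 19.3 CPM in KO day 2 (each pair of values gives replicates 1 and 2 in that order, here and below). At day 1 it was at 16.5 and 10.4 CPM in WT, at 6.58 CPM (76 reads) in the library labelled KO day 1 replicate 1 and at 0 in KO day 1 replicate 2. In monocytes no library exceeded 0.928 CPM, so the genotype could not be checked there. The library labelled KO day 1 replicate 1 also lay between the monocyte and the other day 1 libraries on the first principal component (1.59, against 38.4 to 46.7 for the other 3). WT monocytes replicate 2 lay outside the other monocytes (-140, against -116 in each of the other 3). Fits without both are given where they change a count. By the dates in the file names, monocytes and day 1 of one replicate number came from one experiment, while both day 2 pairs came from other experiments, so time in culture cannot be told apart from the experiment at day 2. Both day 2 replicate 1 libraries held Xist RNA (794 to 885 CPM, against at most 1.01 CPM in the other 10), so the sex of the cells also differed between the day 2 experiments. The files of day 1 replicate 2 carry a 16 h mark where the labels say 1 day.

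Across the culture, the 34 genes as a list were higher at day 2 than in monocytes or at day 1, in both genotypes, and most of the increase fell between day 1 and day 2. Every adjusted p here is from edgeR's quasi-likelihood test with Benjamini-Hochberg adjustment over the 14034 genes tested. A gene was called at a value under 0.05. A value after ± is an approximate standard error, the absolute log2 fold change divided by the square root of the test's F statistic. In WT day 2 against WT monocytes, 19 of 34 genes rose and 0 fell, where 12.7% of all tested genes rose and 9.89% fell. The median log2 fold change was 1.47 over the 34 genes and 0.09 over all tested genes, and 32 of 34 values were above 0. KO day 2 against KO monocytes gave 13 genes higher and 0 lower (background 9.95% higher and 7.57% lower), with a median log2 fold change of 1.14 against 0.08 for all genes and 31 of 34 values above 0. All 13 genes called in KO were among the 19 called in WT (68.4% of the WT list and 100% of the KO list). Acat2, Pmvk, Nsdhl, Srebf2, Insig1 and Fads2 were called in WT and not in KO. That does not show a difference between genotypes, and their genotype difference in this change had adjusted p = 1. Both WT day 2 libraries lay above both WT monocyte libraries for 28 of 34 genes (35.6% of all tested genes did) and below for 2, Ebp and Elovl6 (27.2%). In KO the counts were 28 above (37.5%) and 2 below, Ebp and Srebf1 (32.2%).

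**Figure D1:**
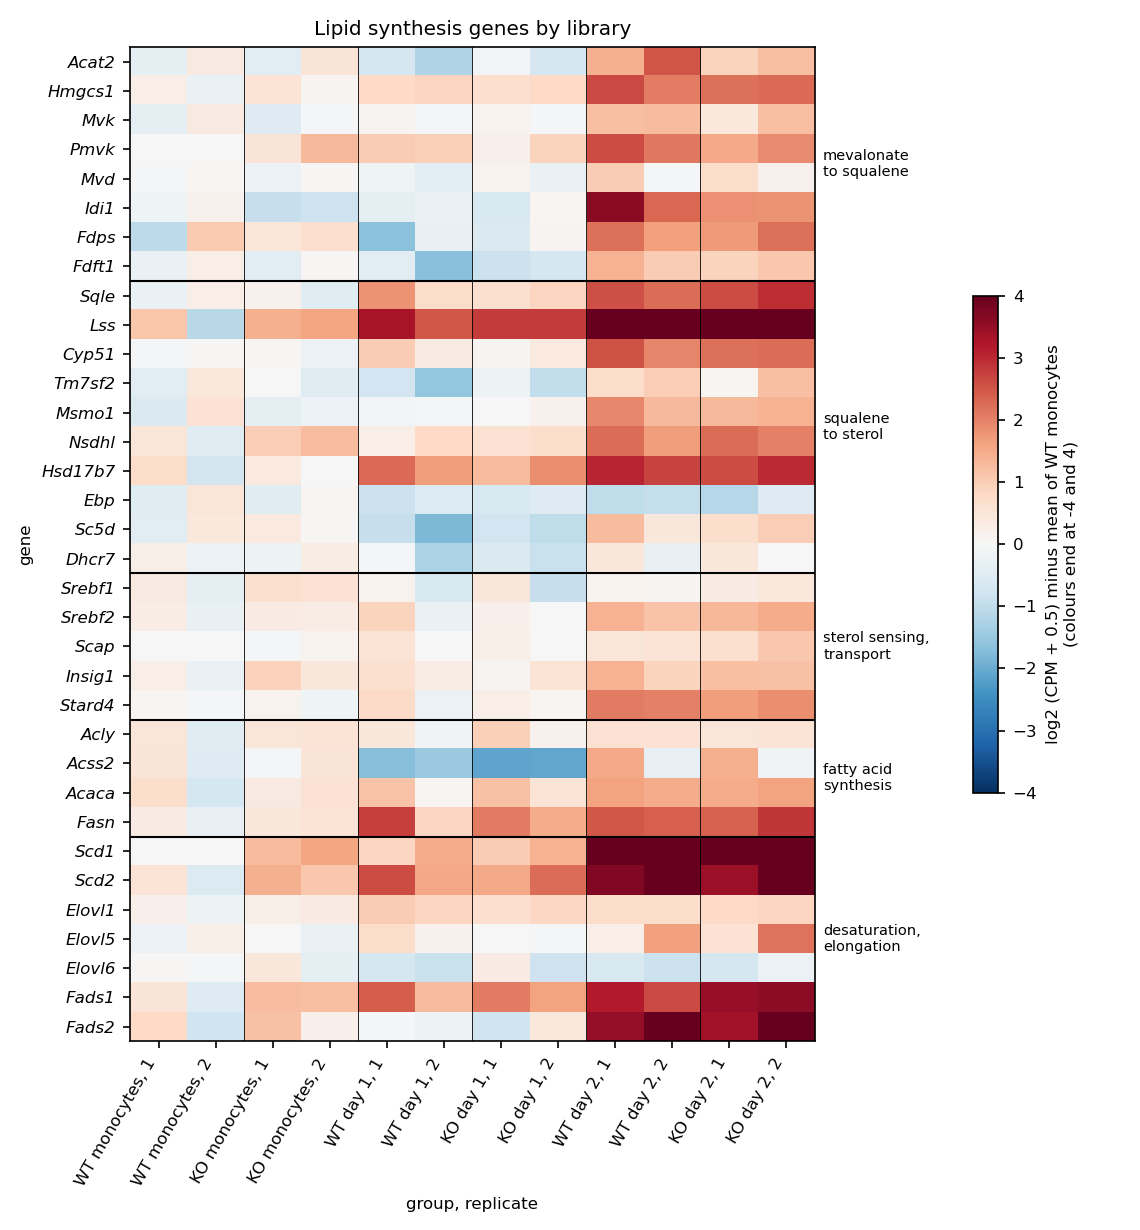
Heat map of the 34 genes (rows, grouped by role) in the 12 libraries (columns). Colour gives log2 (CPM + 0.5) minus the mean of the 2 WT monocyte libraries, red for higher and blue for lower, with colours ending at -4 and 4. The 4 day 2 columns on the right are red in most rows, while Ebp and Elovl6 are blue or near white there.

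At the first step, WT day 1 against WT monocytes, 8 genes rose (Sqle, Lss, Hsd17b7, Fasn, Scd1, Scd2, Elovl1 and Fads1) and 1 fell (Sc5d), where 11.4% and 10.1% of all tested genes did. The median log2 fold change was 0.33 against 0.06. This count rested on few libraries. Leaving out WT day 1 replicate 1 gave 1 higher and 2 lower, and leaving out WT monocytes replicate 2 gave 3 higher and 0 lower. A fit of the compared groups only gave 1 and 0. In KO day 1 against KO monocytes, 0 genes rose and 1 fell (Acss2), with background 7.7% and 6.14%. An unadjusted p under 0.05 was found for 6 of the 34 genes and for 4190 of the 14034 tested genes. DESeq2 gave 1 higher and 1 lower there, and called 2988 genes over all tested. At the second step, WT day 2 against WT day 1, 13 genes rose and 0 fell (background 4.67% and 3.51%), with a median of 1.33 against 0.03. The count of 13 became 6 or 2 when WT day 1 replicate 1 or 2 was left out, and 3 or 8 when WT day 2 replicate 1 or 2 was. In KO day 2 against KO day 1, 6 genes rose and 0 fell (background 1.5% and 0.542%), with a median of 1.45 against -0.01. Leaving out KO day 1 replicate 1 or 2 gave 1 or 2, and KO day 2 replicate 1 or 2 likewise 1 or 2. The KO count was 1 in a fit of the compared groups only, 11 with a block by replicate number and 18 with DESeq2. DESeq2 called 1057 of all tested genes at this step, where the main edgeR fit called 287. From KO monocytes to KO day 2, DESeq2 called 3455 and the main fit 2459. The share of all tested genes called in the other alternative fits was not computed, so those counts have no background. The steps share the day 1 libraries, and the comparisons with monocytes share the monocyte and day 2 libraries, so their counts are not independent. For day 2 against monocytes, the WT count was 11 in a fit of the compared groups only. The KO count there became 8 or 5 when KO monocytes replicate 1 or 2 was left out, and 20 with DESeq2 or the compared groups only.

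**Figure D2:**
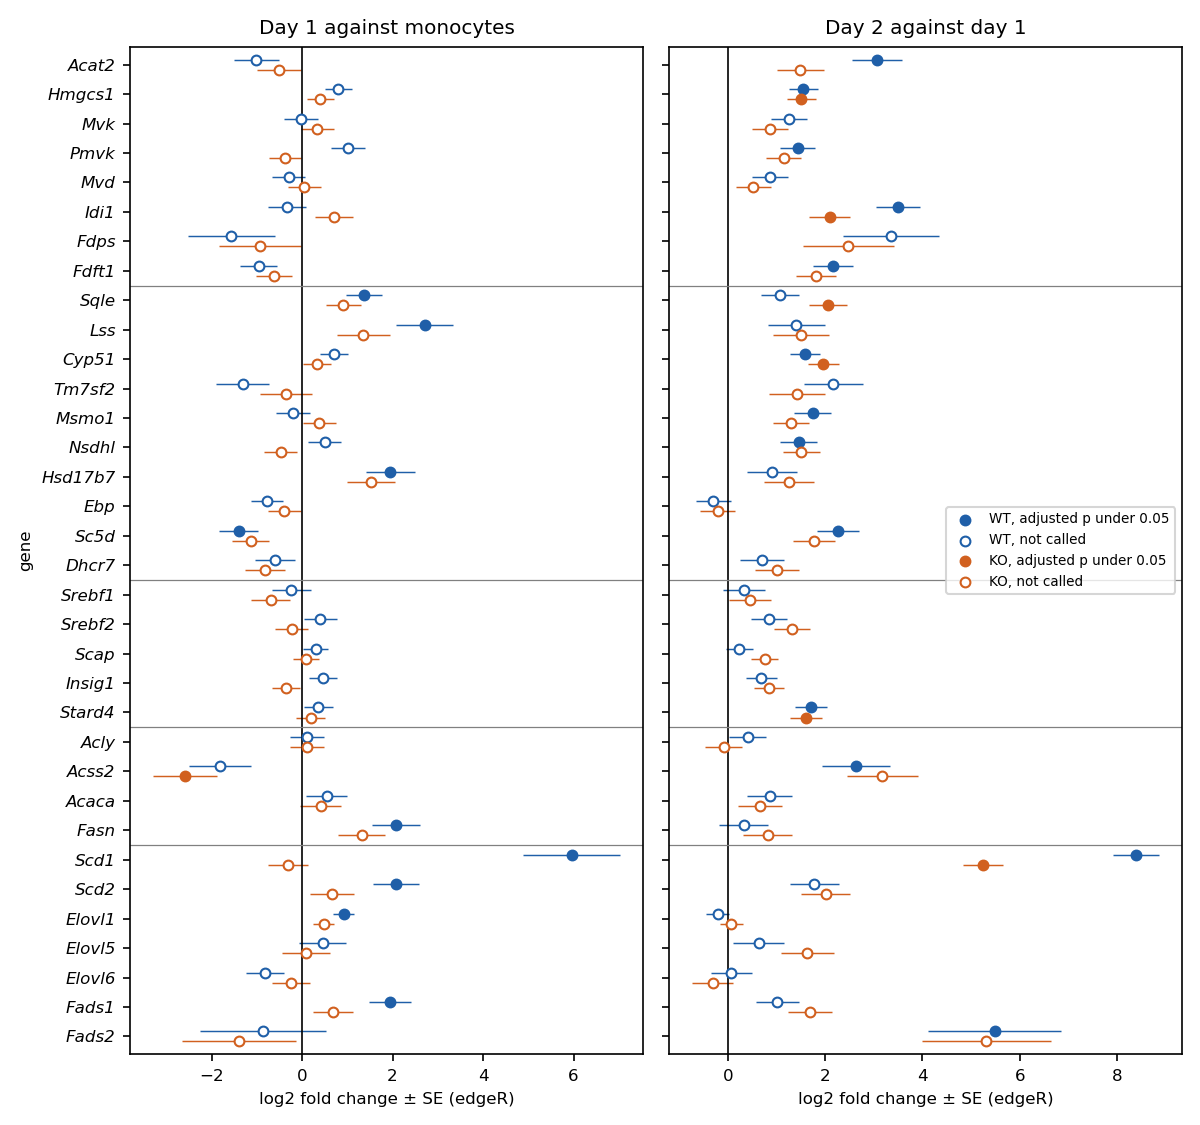
Fitted log2 fold change and approximate standard error per gene (rows), for monocytes to day 1 (left) and day 1 to day 2 (right). Points are blue for WT and orange for KO, filled where the adjusted p was under 0.05. In the right panel 32 of 34 WT points and 31 of 34 KO points lie above 0; the WT Scd1 point on the left (5.96) is fitted against 2 libraries with 0 reads and is not a measured ratio.

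Markers of the cells moved over the same steps. The summed level of 7 monocyte markers was 16970 to 20824 CPM in the 4 monocyte libraries, 4120 to 4839 CPM at day 1 and 763 to 2671 CPM at day 2. That of 9 dendritic cell markers was 201 to 248, 9113 to 13441 and 30921 to 35760 CPM. Against monocytes, 7 of these 9 were higher and 1 was lower at day 1 in each genotype. At day 2, 7 were higher in WT and 8 in KO, with 0 lower. The summed level of 18 cell cycle genes was 3500 to 4736 CPM in monocytes, 983 to 1656 CPM at day 1 and 1133 to 1504 CPM at day 2, and 14 of 18 were lower in WT day 2 than in WT monocytes. Of 8 adipocyte and stromal markers, Plin1 and Dcn had 0 reads in all 12 libraries and Adipoq did not exceed 0.429 CPM, while Lpl, which macrophages also express, reached 6017 CPM. Erythroid markers summed to 31.8 to 174 CPM in monocytes, 0.0547 to 0.571 CPM at day 1 and 17.4 to 110 CPM at day 2. The 12 neutrophil markers summed to 4456 CPM in WT monocytes replicate 2 and to 1218, 2233 and 1683 CPM in the other 3 monocyte libraries, with 939.9 to 2274 CPM at day 1 and 526 to 1881 CPM at day 2. From monocytes to day 2, 1 of the 12 rose and 3 fell in WT. Without WT monocytes replicate 2, 16 of the 34 lipid genes were higher in WT at day 2 than in monocytes, against 19 with it. The part of these changes in the levels of the lipid genes was not tested, and in bulk RNA more cells of a kind and more RNA per cell cannot be told apart.

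**Figure D3:**
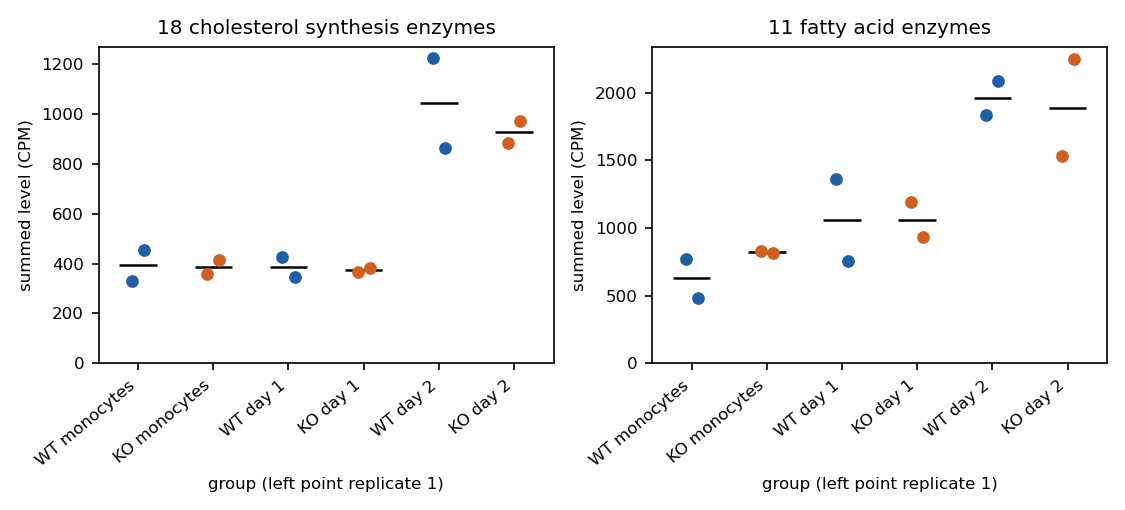
Summed level in CPM of the 18 enzymes of cholesterol synthesis (left) and of the 11 fatty acid enzymes (right) in each library (points, left point replicate 1) with the mean of each group (line), blue for WT and orange for KO. The 18 enzymes sum to 331 to 454 CPM in monocytes, 347 to 425 CPM at day 1 and 866 to 1225 CPM at day 2; the 11 enzymes sum to 480.2 to 831 CPM, 752 to 1361 CPM and 1528 to 2248 CPM at the same stages.

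In WT, the 18 enzymes from acetyl-CoA to cholesterol summed to 331 and 454 CPM (monocytes), 425 and 347 CPM (day 1) and 1225 and 866 CPM (day 2). In KO they summed to 358 and 412 CPM (monocytes), 367 and 384 CPM (day 1) and 884 and 971 CPM (day 2). Monocyte and day 1 libraries overlapped, and all 4 day 2 libraries were above all 8 earlier ones.

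Among the 8 genes from acetyl-CoA to squalene, Acat2 (cytosolic acetoacetyl-CoA thiolase), Hmgcs1 (HMG-CoA synthase), Mvk and Pmvk (mevalonate and phosphomevalonate kinase) and Idi1 (isopentenyl diphosphate isomerase) were higher in WT day 2 than in WT monocytes, and Hmgcs1, Mvk and Idi1 also in KO. Hmgcs1 was at 37.1 and 25.8 CPM in WT monocytes, 53.7 and 56.3 CPM at WT day 1 and 194 and 128 CPM at WT day 2. KO values of Hmgcs1 were 45.6 and 33.1 CPM in monocytes, 49.96 and 54.5 at day 1 and 146 and 151 at day 2. All 4 day 2 libraries exceeded every earlier library, and Hmgcs1 was the first of the 8 by level per kilobase of transcript at WT day 2 (46.5 CPM per kb). Its log2 fold change from monocytes to day 2 was 2.35 ± 0.31 (adjusted p = 0.000523) in WT and 1.91 ± 0.30 (adjusted p = 0.00195) in KO, and both calls held without any single library. Idi1 was at 7.66 and 9.7 CPM in WT monocytes, 6.61 and 7.1 CPM at WT day 1 and 111 and 44.1 CPM at WT day 2. KO values of Idi1 were 4.36 and 4.68 CPM in monocytes, 5.54 and 9.08 at day 1 and 31.7 and 31 at day 2. Both KO day 2 libraries were below both WT day 2 libraries, and the WT day 2 libraries differed from each other 2.52-fold. Idi1 changed by 3.50 ± 0.45 (adjusted p = 0.00257) on the log2 scale from day 1 to day 2 in WT, a call that held without any single library. In KO it changed by 2.09 ± 0.43 (adjusted p = 0.0334), lost whichever of the 4 libraries was left out (adjusted p = 0.0694 to 0.135).

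Acat2, which joins 2 acetyl-CoA at the start of the route, was at 8.81 and 15.1 CPM in WT monocytes, 7.1 and 4.73 CPM at WT day 1 and 31.6 and 68 CPM at WT day 2. KO values of Acat2 were 8.43 and 16.6 CPM in monocytes, 10.6 and 7.06 at day 1 and 21.7 and 27.5 at day 2. The WT day 2 libraries were the 2 highest, replicate 2 more than replicate 1. From monocytes to day 2 the WT log2 fold change was 2.06 ± 0.49 (adjusted p = 0.0133), lost without WT monocytes replicate 1 (adjusted p = 0.0512) or WT day 2 replicate 2 (0.131). The KO value of Acat2 was 0.98 ± 0.48 (adjusted p = 0.186) and was not called. Pmvk was at 8.66 and 8.54 CPM in WT monocytes, 17.8 and 17 CPM at WT day 1 and 55.3 and 38.6 CPM at WT day 2. KO values of Pmvk were 12.5 and 21.8 CPM in monocytes, 9.87 and 16.5 at day 1 and 25.3 and 33 at day 2. In WT its log2 fold change from monocytes to day 2 was 2.45 ± 0.38 (adjusted p = 0.00149) and held without any single library. In KO it was 0.77 ± 0.36 (adjusted p = 0.172) and not called, with KO monocytes replicate 2 above all 4 day 1 libraries. Mvk spanned 8.86 to 31.9 CPM over the 12 libraries and Fdft1 (squalene synthase) 9.38 to 82.5 CPM. From monocytes to day 2, Mvk changed by 1.22 ± 0.37 (adjusted p = 0.0366) on the log2 scale in WT, lost without WT monocytes replicate 1 (adjusted p = 0.113) or either WT day 2 library (0.111 and 0.147). Its KO value was 1.2 ± 0.37 (adjusted p = 0.0463), lost without either KO monocyte library (adjusted p = 0.228 and 0.118) or KO day 2 replicate 2 (0.353). Fdft1 was called in 1 of the 9 comparisons, WT day 2 against day 1. Its log2 fold change there was 2.16 ± 0.42 (adjusted p = 0.0147), lost without WT day 1 replicate 2 (adjusted p = 0.087) or WT day 2 replicate 1 (0.0842).

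Mvd (mevalonate diphosphate decarboxylase) and Fdps (farnesyl diphosphate synthase) were called in none of the 9 comparisons of groups. Mvd was at 35.7 and 40.2 CPM in WT monocytes, 33.8 and 28.2 CPM at WT day 1 and 76.5 and 36.2 CPM at WT day 2. KO values of Mvd were 31.9 and 39.6 CPM in monocytes, 42.3 and 31.5 at day 1 and 63 and 43.2 at day 2. The day 2 replicate 1 libraries were the highest in both genotypes, and the day 2 replicate 2 libraries lay within or just above the range of the earlier ones. Fdps was at 0.613 and 4.32 CPM in WT monocytes, 0.248 and 1.39 CPM at WT day 1 and 10.1 and 6.7 CPM at WT day 2. KO values of Fdps were 2.71 and 3.19 CPM in monocytes, 1.04 and 2.02 at day 1 and 7.0 and 10.2 at day 2. Its 4 day 2 libraries were above all others, with a log2 fold change from day 1 to day 2 of 3.35 ± 0.99 (adjusted p = 0.0631) in WT. Fdps rested on few reads and has near-identical copies in the genome, and reads that map to several places were not counted, so its level is uncertain.

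Among the 10 genes from squalene to cholesterol, 6 rose in WT from monocytes to day 2 (Sqle, Lss, Cyp51, Msmo1, Nsdhl and Hsd17b7) and 5 of them also in KO. Sqle (squalene epoxidase, a rate-limiting step) was at 10.3 and 15.3 CPM in WT monocytes, 44.4 and 21.2 CPM at WT day 1 and 77.1 and 61.3 CPM at WT day 2. KO values of Sqle were 14.1 and 8.72 CPM in monocytes, 20.001 and 23 at day 1 and 79.7 and 99.5 at day 2. The 4 day 2 libraries were the highest, and WT day 1 replicate 1 was the highest of the day 1 libraries. Log2 fold changes from monocytes to day 2 were 2.44 ± 0.41 (adjusted p = 0.00214) in WT and 2.97 ± 0.41 (adjusted p = 0.00104) in KO, and both held without any single library. Sqle had also risen in WT by day 1 (log2 1.36 ± 0.40, adjusted p = 0.0332), lost without WT monocytes replicate 1 (adjusted p = 0.11) or WT day 1 replicate 1 (0.262). From day 1 to day 2 it rose in KO (log2 2.06 ± 0.40, adjusted p = 0.028), lost whichever of the 4 libraries was left out (adjusted p = 0.0869 to 0.136).

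Lss (lanosterol synthase, which closes the sterol rings) was at 5.21 and 0.738 CPM in WT monocytes, 25.7 and 14.5 CPM at WT day 1 and 63.5 and 43.4 CPM at WT day 2. KO values of Lss were 6.64 and 7.37 CPM in monocytes, 18 and 17.9 at day 1 and 50.5 and 51.2 at day 2. Every cultured library was above every monocyte library, and WT monocytes replicate 2 held the lowest value. Lss rose by a log2 fold change of 2.71 ± 0.63 (adjusted p = 0.0128) in WT at day 1, lost without WT day 1 replicate 1 (adjusted p = 0.0777). At day 2 against monocytes it was 4.12 ± 0.66 (adjusted p = 0.00168) in WT, held without any single library, and 2.86 ± 0.61 (adjusted p = 0.00984) in KO, lost without either KO monocyte library (adjusted p = 0.0823 and 0.0851). Cyp51 (lanosterol 14-alpha demethylase) was at 26.1 and 27.9 CPM in WT monocytes, 54.8 and 33.9 CPM at WT day 1 and 161 and 105 CPM at WT day 2. KO values of Cyp51 were 28.6 and 22.9 CPM in monocytes, 29.4 and 35.8 at day 1 and 125 and 129 at day 2. Every day 2 library was above every earlier one. Its log2 fold change from monocytes to day 2 was 2.30 ± 0.32 (adjusted p = 0.000817) in WT and 2.30 ± 0.32 (adjusted p = 0.00105) in KO, and both held without any single library. Between day 1 and day 2 it was 1.59 ± 0.31 (adjusted p = 0.0159) in WT, lost without WT day 1 replicate 2 (adjusted p = 0.122) or WT day 2 replicate 1 (0.122). The KO value of Cyp51 there was 1.96 ± 0.32 (adjusted p = 0.0144), lost without KO day 1 replicate 1 (adjusted p = 0.0674) or either KO day 2 library (0.0624 and 0.0609).

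Hsd17b7 (a 3-ketosteroid reductase of the route) was at 4.75 and 1.37 CPM in WT monocytes, 14.6 and 9.47 CPM at WT day 1 and 25.5 and 19.9 CPM at WT day 2. KO values of Hsd17b7 were 3.64 and 2.62 CPM in monocytes, 7.01 and 10.9 at day 1 and 18.5 and 24.3 at day 2. Its cultured libraries were all above the monocytes, and day 2 was above day 1 throughout. From monocytes to day 2 the log2 fold change was 2.86 ± 0.55 (adjusted p = 0.00468) in WT and 2.77 ± 0.55 (adjusted p = 0.00668) in KO, lost without KO monocytes replicate 2 (adjusted p = 0.0773). Its WT rise at day 1 (log2 1.95 ± 0.54, adjusted p = 0.0273) was lost without WT monocytes replicate 2 (adjusted p = 0.0872) or either WT day 1 library (0.136 and 0.0532). Msmo1 (methylsterol monooxygenase) spanned 19.8 to 115 CPM and Nsdhl (a sterol dehydrogenase) 7.07 to 49.6 CPM over the libraries. Msmo1 rose from monocytes to day 2 by 1.54 ± 0.37 (adjusted p = 0.0144) on the log2 scale in WT, lost without WT day 2 replicate 1 (adjusted p = 0.105). In KO it rose by 1.67 ± 0.37 (adjusted p = 0.012), lost without either KO monocyte library (adjusted p = 0.0924 and 0.0825) or KO day 2 replicate 2 (0.0598). Nsdhl rose in WT (log2 1.95 ± 0.38, adjusted p = 0.00481), held without any single library, and in KO it was not called (log2 1.04 ± 0.37, adjusted p = 0.0766).

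Ebp (sterol delta8-delta7 isomerase) went another way. It was at 73 and 143 CPM in WT monocytes, 56.2 and 70.02 CPM at WT day 1 and 50.5 and 52.1 CPM at WT day 2. KO values of Ebp were 72.2 and 107 CPM in monocytes, 65.9 and 70.6 at day 1 and 45.9 and 72.1 at day 2. Monocytes were the highest in both genotypes, with replicate 2 above replicate 1, and WT day 2 was below all WT monocytes and day 1 libraries. The WT log2 fold change from monocytes to day 2 was -1.07 ± 0.36 (adjusted p = 0.0557), just outside the threshold, and with a block by replicate number it was adjusted p = 0.0204. Ebp ranked 2 of the 34 by level per kilobase in WT monocytes (62.0 CPM per kb, after Acly at 65.4) and 12 at WT day 2 (29.4 CPM per kb). Sc5d (lathosterol desaturase) fell in WT at day 1 and rose from day 1 to day 2. It spanned 16.8 to 30.5 CPM in monocytes, 6.12 to 13.2 CPM at day 1 and 31.0 to 54.6 CPM at day 2. In WT its log2 fold change was -1.40 ± 0.42 (adjusted p = 0.0394) at day 1, lost without WT monocytes replicate 2 (adjusted p = 0.164) or WT day 1 replicate 2 (0.214). The WT value from day 1 to day 2 was 2.26 ± 0.43 (adjusted p = 0.0145), lost without WT day 1 replicate 2 (adjusted p = 0.114) or WT day 2 replicate 1 (0.098). In KO the same steps were -1.14 ± 0.42 (adjusted p = 0.0967) and 1.77 ± 0.42 (adjusted p = 0.0627), neither called. Dhcr7 (7.43 to 25.5 CPM), which makes the last double-bond reduction, and Tm7sf2 (1.80 to 15.2 CPM), a sterol delta14 reductase, were called in none of the 9 comparisons. Nsdhl and Ebp lie on the X chromosome, and the sex of the cells differed between the day 2 experiments. Nsdhl was at 49.6 and 33.0 CPM in WT day 2 and at 49.2 and 42.2 CPM in KO day 2, so replicate 1 was the higher in both genotypes. Ebp went the other way, with replicate 1 the lower in WT day 2 (50.5 and 52.1 CPM) and in KO day 2 (45.9 and 72.1 CPM). The part of sex in these levels was not tested.

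Of the 5 genes that sense or carry sterols, Srebf2, Insig1 and Stard4 rose in WT from monocytes to day 2, Stard4 also rose in KO, and Srebf1 and Scap were called in no comparison. Stard4 (a cytosolic sterol carrier) was at 26 and 23.1 CPM in WT monocytes, 42 and 20.8 CPM at WT day 1 and 105 and 101 CPM at WT day 2. KO values of Stard4 were 26.8 and 21.9 CPM in monocytes, 29.6 and 26.2 at day 1 and 79.7 and 90.6 at day 2. The 4 day 2 libraries were all above the earlier 8. The log2 fold change from monocytes to day 2 was 2.07 ± 0.33 (adjusted p = 0.00174) in WT, held without any single library, and 1.81 ± 0.33 (adjusted p = 0.00429) in KO, lost without KO monocytes replicate 2 (adjusted p = 0.0559). The second step gave 1.71 ± 0.33 (adjusted p = 0.0145) in WT, lost without WT day 1 replicate 2 (adjusted p = 0.0891) or either WT day 2 library (0.0748 and 0.065). In KO that step gave 1.61 ± 0.33 (adjusted p = 0.0334), lost whichever of the 4 libraries was left out (adjusted p = 0.0856 to 0.161).

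Srebf2, the SREBP gene tied most to cholesterol synthesis, was at 174 and 114 CPM in WT monocytes, 262 and 118 CPM at WT day 1 and 368 and 314 CPM at WT day 2. KO values of Srebf2 were 176 and 174 CPM in monocytes, 161 and 138 at day 1 and 357 and 391 at day 2. All day 2 libraries were the highest, and WT day 1 replicate 1 stood above the other day 1 libraries. The WT log2 fold change from monocytes to day 2 was 1.24 ± 0.37 (adjusted p = 0.0349), lost without WT monocytes replicate 2 (adjusted p = 0.178) or either WT day 2 library (0.141 and 0.0926). The KO value of Srebf2 was 1.10 ± 0.37 (adjusted p = 0.0633), called with a block by replicate number (adjusted p = 0.0316). Insig1, itself a target of SREBP, was at 34 and 23.2 CPM in WT monocytes, 44.2 and 34.8 CPM at WT day 1 and 75 and 52.5 CPM at WT day 2. KO values of Insig1 were 53.4 and 38.5 CPM in monocytes, 30.5 and 41.2 at day 1 and 65.7 and 63.4 at day 2. KO monocytes lay above WT monocytes and overlapped day 1. Its WT log2 fold change from monocytes to day 2 was 1.15 ± 0.32 (adjusted p = 0.0254), lost without WT monocytes replicate 2 (adjusted p = 0.125) or WT day 2 replicate 1 (0.17). The KO value of Insig1 was 0.49 ± 0.31 (adjusted p = 0.312) and not called. Srebf1, the SREBP gene tied most to fatty acid synthesis, spanned 36.7 to 110 CPM and Scap 39.8 to 89.6 CPM. Srebf2 reads made up 65.9% and 68.0% of the reads of both Srebf genes in WT monocytes and 82.7% and 80.5% at WT day 2, and in KO 61.6% and 62.5% in monocytes and 80.2% and 80.7% at day 2. Exact binomial intervals of these shares, which cover counting error only, are no wider than 65.6 to 70.2%, in WT monocytes replicate 2.

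The 4 genes that make palmitate differed among themselves. Fasn (fatty acid synthase) was at 64.3 and 39.9 CPM in WT monocytes, 347 and 93.2 CPM at WT day 1 and 286 and 266 CPM at WT day 2. KO values of Fasn were 69.9 and 74 CPM in monocytes, 217 and 143 at day 1 and 262 and 370.1 at day 2. Its level rose early, with WT day 1 replicate 1 above both WT day 2 libraries and 3.72-fold above its replicate. The WT log2 fold change at day 1 was 2.08 ± 0.53 (adjusted p = 0.0189), lost without WT monocytes replicate 2 (adjusted p = 0.112) or WT day 1 replicate 1 (0.204). From monocytes to day 2 it was 2.40 ± 0.53 (adjusted p = 0.00966) in WT, lost without WT monocytes replicate 2 (adjusted p = 0.0803). The KO value of Fasn was 2.14 ± 0.53 (adjusted p = 0.0192), lost without either KO monocyte library (adjusted p = 0.124 and 0.124) or KO day 2 replicate 2 (0.0955). Fasn did not pass the test from day 1 to day 2 in WT (log2 0.33 ± 0.51, adjusted p = 0.752).

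Acly (ATP citrate lyase, which makes cytosolic acetyl-CoA from citrate) was at 385 and 193 CPM in WT monocytes, 373 and 248 CPM at WT day 1 and 415 and 405 CPM at WT day 2. KO values of Acly were 381 and 395 CPM in monocytes, 526 and 307 at day 1 and 381 and 402 at day 2. The KO stages overlapped, both WT day 2 libraries lay above the 4 earlier WT libraries, and the library labelled KO day 1 replicate 1 was the highest. Acly was first of the 34 by level per kilobase in WT monocytes and second at WT day 2 (92.7 CPM per kb), and it was called in no comparison. Acaca (acetyl-CoA carboxylase, which makes malonyl-CoA) was at 57.7 and 21.9 CPM in WT monocytes, 78.5 and 37.7 CPM at WT day 1 and 109 and 101 CPM at WT day 2. KO values of Acaca were 45.9 and 53 CPM in monocytes, 80.1 and 52 at day 1 and 99.7 and 109 at day 2. All day 2 libraries were above the rest, and the WT log2 fold change from monocytes to day 2, 1.40 ± 0.46 (adjusted p = 0.0517), was not called; with a block by replicate number it was adjusted p = 0.0187.

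Acss2 (acetyl-CoA synthetase, which uses acetate) fell during the first day in KO. It was at 16.4 and 7.91 CPM in WT monocytes, 3.14 and 3.75 CPM at WT day 1 and 33.7 and 8.98 CPM at WT day 2. KO values of Acss2 were 11.1 and 16.5 CPM in monocytes, 2.25 and 2.35 at day 1 and 31.8 and 10.3 at day 2. All 4 day 1 libraries were below all others, and at day 2 both replicate 1 libraries stood above both replicate 2 libraries. The log2 fold change at day 1 was -2.58 ± 0.71 (adjusted p = 0.0363) in KO, lost whichever of the 4 libraries was left out (adjusted p = 0.0818 to 0.182). In WT it was -1.82 ± 0.69 (adjusted p = 0.0838), which was called with a block by experiment (adjusted p = 0.0113). Acss2 then rose in WT by 2.63 ± 0.70 (adjusted p = 0.0452), lost without either WT day 1 library (adjusted p = 0.208 and 0.193) or WT day 2 replicate 1 (0.357). In KO the same step was 3.18 ± 0.72 (adjusted p = 0.0533), not called. Acss2 and Elovl5 were the 2 genes of the 34 whose day 2 replicates differed at least 2-fold in the same direction in both genotypes. For Acss2 replicate 1 was 3.75-fold higher in WT and 3.09-fold in KO. Elovl5 (an elongase of polyunsaturated chains) was at 97.1 and 250.4 CPM in WT day 2 and at 122 and 368 CPM in KO day 2, so replicate 2 was 2.58-fold and 3.03-fold higher. Experiment and sex of the cells cannot be told apart in these differences.

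The largest change among the 7 genes that desaturate and elongate fatty acids was that of Scd1, 1 of the stearoyl-CoA desaturases that make oleate and palmitoleate. Scd1 had 0 reads in both WT monocyte libraries (3 reads would be 0.230 and 0.316 CPM) and was at 0.413 and 0.898 CPM at WT day 1 and 218 and 228 CPM at WT day 2. KO values of Scd1 were 0.714 and 0.993 CPM in monocytes, 0.520 and 0.821 at day 1 and 22.3 and 30.5 at day 2. It was near 0 in all 8 libraries before day 2, high in both WT day 2 libraries and intermediate in both KO day 2 libraries. WT day 2 was at least 1674-fold above WT monocytes, with 3 reads over both monocyte libraries as the floor. From day 1 to day 2 the log2 fold change was 8.39 ± 0.47 (adjusted p = 0.000151) in WT and 5.25 ± 0.42 (adjusted p = 0.000956) in KO, and both calls held under every alternative run. At day 1 WT was 4.93-fold above the same floor on 16 reads, and the counting error of those reads is not in that value. This rise was called by edgeR (adjusted p = 0.0048) and was lost when the fit held only the compared groups (adjusted p = 0.295).

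Scd2, the neighbouring desaturase gene on chromosome 19 and a form known from brain, was at 52 and 23.6 CPM in WT monocytes, 215 and 102 CPM at WT day 1 and 463 and 628 CPM at WT day 2. KO values of Scd2 were 95.6 and 74.4 CPM in monocytes, 101 and 167 at day 1 and 382 and 702 at day 2. It was present at every stage, with group means higher at each later stage in both genotypes, and had overlapping WT and KO libraries at day 2. At WT day 2 it had the highest level per kilobase of the 34 genes (99.97 CPM per kb), against 46.2 CPM per kb for Scd1. The log2 fold change of Scd2 from monocytes to day 2 was 3.85 ± 0.55 (adjusted p = 0.000867) in WT, held without any single library, and 2.67 ± 0.52 (adjusted p = 0.00584) in KO, lost without KO monocytes replicate 2 (adjusted p = 0.0742). At WT day 1 it was 2.07 ± 0.51 (adjusted p = 0.0163), lost without WT monocytes replicate 2 (adjusted p = 0.0862) or WT day 1 replicate 1 (0.121). Scd1 and Scd2 are close in sequence, and reads that map to both were not counted.

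**Figure D4:**
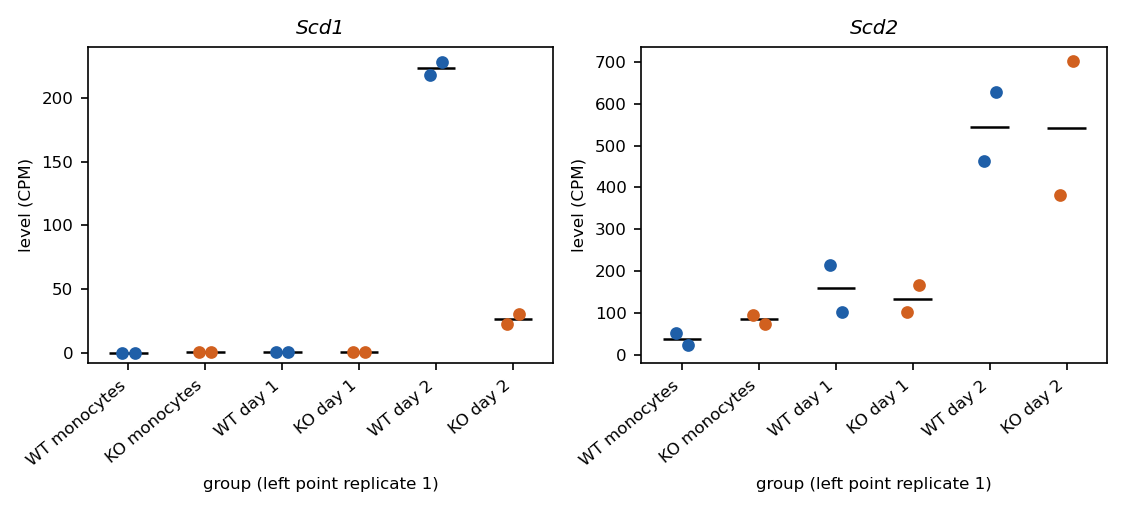
Level in CPM (linear axis) of Scd1 (left) and Scd2 (right) in each library (points, left point replicate 1) with the mean of each group (line), blue for WT and orange for KO. Scd1 is near 0 in monocytes and at day 1, at 218 and 228 CPM in WT day 2 and at 22.3 and 30.5 CPM in KO day 2, while the Scd2 points of the genotypes overlap at day 2.

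Fads1 (delta5 desaturase) was at 7.28 and 3.27 CPM in WT monocytes, 28.2 and 12.6 CPM at WT day 1 and 48.8 and 33.6 CPM at WT day 2. KO values of Fads1 were 12.1 and 11.9 CPM in monocytes, 22.5 and 16 at day 1 and 60.2 and 63.7 at day 2. Monocytes were below all cultured libraries, and all day 2 libraries were above all day 1 libraries. The log2 fold change from monocytes to day 2 was 2.95 ± 0.48 (adjusted p = 0.0018) in WT, held without any single library, and 2.36 ± 0.46 (adjusted p = 0.00592) in KO, lost without either KO monocyte library (adjusted p = 0.0554 and 0.0625). At WT day 1 it was 1.94 ± 0.46 (adjusted p = 0.0145), lost without WT monocytes replicate 2 (adjusted p = 0.0741) or WT day 1 replicate 1 (0.119). Fads2 (delta6 desaturase), its neighbour on chromosome 19, was at 0.996 and 0 CPM in WT monocytes, 0.33 and 0.245 CPM at WT day 1 and 9.32 and 17.3 CPM at WT day 2. KO values of Fads2 were 1.43 and 0.496 CPM in monocytes, 0 and 0.657 at day 1 and 8.34 and 20.9 at day 2. It was at or below 1.43 CPM before day 2 and at 8.34 CPM or more in all day 2 libraries. In WT its log2 fold change from day 1 to day 2 was 5.48 ± 1.38 (adjusted p = 0.037), lost whichever of the 4 libraries was left out (adjusted p = 0.0961 to 0.2). From monocytes to day 2 the WT value was 4.62 ± 1.29 (adjusted p = 0.0272), lost without WT monocytes replicate 2 (adjusted p = 0.0803) or either WT day 2 library (0.0522 and 0.12). In KO the value from monocytes to day 2 was 3.92 ± 1.22 (adjusted p = 0.05), at the threshold and not called.

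Elovl1, an elongase of saturated and monounsaturated chains, rose at day 1 in WT and was not called in the step after. It was at 95.6 and 73 CPM in WT monocytes, 168 and 151 CPM at WT day 1 and 139 and 136 CPM at WT day 2. KO values of Elovl1 were 99.4 and 104 CPM in monocytes, 133 and 149.9 at day 1 and 145 and 152 at day 2. All cultured libraries were above all monocytes within a narrow range. The WT log2 fold change at day 1 was 0.92 ± 0.24 (adjusted p = 0.0203), lost without WT monocytes replicate 2 (adjusted p = 0.0785) or either WT day 1 library (0.099 and 0.061). The next step gave -0.21 ± 0.24 (adjusted p = 0.636). Elovl6, which elongates palmitate to stearate, spanned 12.2 to 31.9 CPM, had the lowest level per kilobase of the 34 genes at WT day 2 (2.30 CPM per kb) and was called in no comparison. Elovl5 likewise was called in none of the 9.

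The comparison of KO with WT asks whether loss of Nr4a3 changed the lipid genes at a stage. At day 2, 1 of 34 genes was lower in KO, Scd1, and 0 were higher, where 0.0998% of all tested genes (14) were lower and 0% higher; 2 of 34 had an unadjusted p under 0.05, and DESeq2 also called Scd1 alone. The median log2 fold change of the 34 genes was -0.02 and that of all tested genes 0.01, with 15 values above 0 and 19 below. In monocytes and at day 1, 0 of 34 genes were called (background 0% in both directions). An unadjusted p under 0.05 was found for 5 and 0 of them, and for 557 and 252 of the 14034 tested genes. DESeq2 called 0 of the 34 in either, and 3 genes in each over all tested. In monocytes 11 genes had both KO libraries above both WT libraries (13.3% of all tested genes did) and 1 below (10.9%), and at day 1 there was 1 above (10.3%) and 4 below (9.06%).

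Scd1 was 8.42-fold lower in KO day 2 than in WT day 2 (log2 -3.07 ± 0.35, adjusted p = 0.0249), lower in both experiments. This call was lost whichever of the 4 libraries was left out (adjusted p = 0.126 to 0.306), and in the fit of the compared groups only the adjusted p was 0.0883. With a block by experiment it was 0.00325, and without both libraries that stood apart 0.00566. Within the experiments, the log2 ratio of KO to WT was -3.26 in replicate 1 and -2.88 in replicate 2. Scd1 reads made up 32.0% (exact 95% binomial interval 30.8 to 33.2, counting error only) and 26.7% (25.6 to 27.7) of Scd1 plus Scd2 reads in WT day 2 and 5.52% (4.65 to 6.51) and 4.17% (3.76 to 4.60) in KO day 2. The intervals of the 2 WT libraries did not overlap, so the spread between libraries was wider than counting error. The genotype difference in the change from monocytes to day 2 was below 0 for 25 of the 34 genes. The share of all tested genes below 0 was not computed, so this count has no background. The median of the 34 genes ranged from -0.429 to -0.045 as single libraries were left out. The difference was called for Scd1 alone (fitted log2 difference -9.40, adjusted p = 0.0195, background 0.0285% lower and 0% higher). That Scd1 value was fitted against 0 reads in WT monocytes, so it has no usable standard error and is not a bound. With 3 reads there the difference is -5.68. Scd1 had 10 and 14 reads in KO monocytes, so part of that size comes from counts near the floor and not from day 2. The genotype call was lost without WT monocytes replicate 2 (adjusted p = 0.0599), either KO monocyte library (0.0924 and 0.144), either WT day 2 library (0.0797 and 0.0875) or either KO day 2 library (0.0965 and 0.0953). The Scd1 difference from day 1 to day 2 was -3.14 ± 0.58 (adjusted p = 0.374) and not called. For that step and for the change from monocytes to day 1, 0 of 34 genes were called by edgeR (background 0% in both directions). An unadjusted p under 0.05 was found for 3 and 2 of them, and for 340 and 400 of the 14034 tested genes. DESeq2 called 1 and 0 of the 34, and 24 and 2 genes over all tested.

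**Figure D5:**
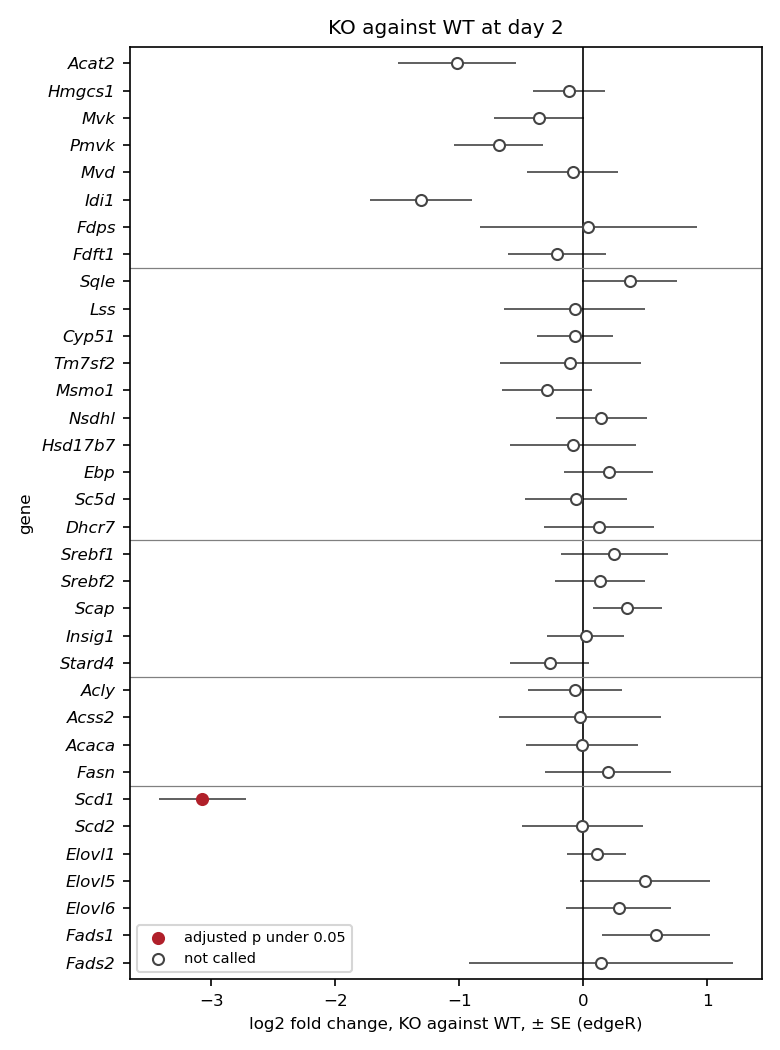
Fitted log2 fold change of KO against WT at day 2 with its approximate standard error for the 34 genes (rows, grouped by role). The filled point is Scd1 at -3.07; Idi1 (-1.31) and Acat2 (-1.02) come next and were not called.

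After Scd1, the largest differences at day 2 were in the mevalonate route and were not called. Idi1 was at 111 and 44.1 CPM in WT and at 31.7 and 31.0 CPM in KO, with a log2 fold change of -1.31 ± 0.41 (adjusted p = 0.773). Both KO libraries were below both WT libraries, and WT replicate 1 carried much of the gap (log2 ratio of KO to WT -1.80 in replicate 1 and -0.50 in replicate 2). Acat2 was at 31.6 and 68.0 CPM in WT and 21.7 and 27.5 CPM in KO (log2 -1.02 ± 0.48, adjusted p = 1), and Pmvk at 55.3 and 38.6 CPM and 25.3 and 33.0 CPM (log2 -0.68 ± 0.36, adjusted p = 1). Of the 34 genes, 6 had both KO day 2 libraries below both WT libraries (Acat2, Pmvk, Idi1, Stard4, Acly and Scd1; 20.6% of all tested genes did) and 5 above (Sqle, Srebf1, Scap, Elovl1 and Fads1; 17.6%). An edgeR fit of the compared groups with a block by experiment was chosen after the data had been seen. There Acat2 (adjusted p = 0.0286) was lower in KO, as was Scd1, and Elovl5 (0.0384) and Fads1 (0.0474) were higher. Acat2, Elovl5 and Fads1 were not called in the main fit. The share of all tested genes called in that fit was not computed, so these calls have no background.

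The sign over the whole list depended on the experiment. In replicate 1, 28 of 34 genes were lower in KO than in WT at day 2 (median log2 ratio -0.23, against -0.0032 for all tested genes), and in replicate 2, 27 of 34 were higher (0.26 against 0.02). WT day 2 replicate 1 was above replicate 2 for 25 of 34 genes, where 51.1% of all tested genes were higher in replicate 1. KO day 2 replicate 1 was below replicate 2 for 28 of 34, where 49.3% of all tested genes were higher in replicate 1. At day 1, WT replicate 1 was above replicate 2 for 26 of 34 genes, with a median log2 ratio of 0.57, where 46% of all tested genes were higher in replicate 1. Over these day 2 libraries, the 12 neutrophil markers summed to 526 to 1301 CPM in WT and 1095 to 1881 CPM in KO. These ranges overlap. All 12 fitted differences of KO against WT were above 0, as were those of 17 of 18 cell cycle genes, and none of either list was called. The share of all tested genes above 0 was not computed, so these counts have no background. The part of the 2 lists in the differences of the lipid genes was not tested.

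Other genes of lipid handling were counted from monocytes to day 2, from lists of fixed membership that were chosen with earlier results of these data known. Over all tested genes, 12.7% rose and 9.89% fell in WT and 9.95% rose and 7.57% fell in KO. Of 20 further genes of fatty acid synthesis and activation, 18 were tested, and 5 rose and 1 fell in WT from monocytes to day 2, with 4 higher and 1 lower in KO. Acsl3, which activates fatty acids with CoA, was at 4.37 and 4.01 CPM in WT monocytes and 23.3 and 23.8 CPM at WT day 2, a log2 fold change of 2.49 ± 0.41 (adjusted p = 0.00194). The KO value of Acsl3 was 2.88 ± 0.41 (adjusted p = 0.00112). Acsl4, which prefers arachidonate, rose by 1.46 ± 0.28 in WT (adjusted p = 0.00412) and 1.77 ± 0.28 in KO (adjusted p = 0.00192). Of 9 genes of sterol efflux and storage, 3 rose and 1 fell in WT and 2 rose in KO. Abcg1, an exporter of cholesterol that liver X receptors switch on, was at 70.6 and 29.5 CPM in WT monocytes and 344 and 299 CPM at WT day 2 (log2 2.68 ± 0.42, adjusted p = 0.00155). Of 17 genes of fatty acid oxidation, 0 rose and 4 fell in WT and 0 rose and 3 fell in KO. Cpt1a, the carrier step that admits fatty acids to mitochondria, was at 401 and 212 CPM in WT monocytes and 99.1 and 87.5 CPM at WT day 2 (log2 -1.72 ± 0.33, adjusted p = 0.00436). Of 14 other regulators, 0 rose and 3 fell in each genotype: Mid1ip1, which helps acetyl-CoA carboxylase assemble, fell by 1.79 in WT and 2.15 in KO on the log2 scale, Erlin1 by 1.04 and 0.97, and Mlx by 0.83 and 0.96. Of 13 genes of the isoprenoid branches, 0 rose and 1 fell in WT (Coq2, of ubiquinone synthesis, log2 -2.10 ± 0.32, adjusted p = 0.00126), and in KO 1 rose and 1 fell. In KO against WT at day 2, 0 genes of these 5 lists were called.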

How the data were processed

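Deposited read counts per gene were used, 1 file per library. Reads were trimmed with Trimmomatic 0.35 and aligned with STAR 2.5.1b to GRCm38, per the submitters' processing notes, and STAR's counts were deposited by the authors; no source used here gives the annotation release. The reverse-stranded count column was read because the opposite one held only 3.63 to 5.33% of the reads counted in genes. Lines that name no gene stayed out of library sizes: unmapped 2.65 to 7.91%, multimapping 5.29 to 8.94%, no feature 5.24 to 11.2% and ambiguous 1.34 to 1.76% of reads. Gene names and positions came from GENCODE M21 for 47224 of 47643 identifiers, and levels per kilobase used the longest protein-coding transcript.

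Counts of 14034 genes that passed filterByExpr, among them all 34 described here, were fitted with edgeR 4.0.16 in R 4.3.3 (TMM, robust quasi-likelihood, 1 mean for each of 6 groups, 6 residual degrees of freedom, biological coefficient of variation 0.393). Tests were 2-sided with Benjamini-Hochberg adjustment over all tested genes, threshold 0.05, in 9 comparisons of groups and 3 genotype differences in a change. The script was tested on simulated data. Alternatives were DESeq2 1.42.0, other scaling, no low-count filter, unstranded counts, a replicate block, the compared groups only, and libraries left out. Nothing says whether a library pools animals, so p-values measure the spread between these samples. No 2 libraries agreed within sampling noise (lowest chi-square per degree of freedom 11.1).

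Same-numbered KO and WT libraries carry the same date in their file names, and their deviations from the group means correlated (0.24 for monocytes, 0.19 for day 1, 0.66 for day 2); with day 2 against earlier stages the values were -0.03 to 0.16. Levels were printed for the members with the 4 largest called changes of each role (all 4 palmitate genes), those highest or lowest per length of their role, and any called between genotypes; other pathway genes were the up to 3 per list with the smallest adjusted p. The members and lists were chosen with earlier results of these data known. The log2 ratios within an experiment used CPM plus 0.5.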

Additional observations from a re-analysis of the deposited data

Results flagged for a closer look

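The fitted change of Scd1 from monocytes to day 2 was smaller in KO than in WT. The fitted genotype difference was -9.40 on the log2 scale (edgeR, adjusted p = 0.0195), without a usable standard error. WT monocytes held 0 Scd1 reads, and with 3 reads in their place the difference was -5.68. KO monocytes held 10 and 14 reads, so part of this size comes from counts near the floor. At day 2 alone KO was 8.42-fold lower. The call was lost in the edgeR fit of the compared groups only (adjusted p = 0.0803) and, as given above, when most of the single libraries were left out. Idi1 libraries differed in opposite directions from monocytes to day 1 in WT and KO, and neither change was called. Both WT day 1 libraries (6.61 and 7.10 CPM) were below both WT monocyte libraries (7.66 and 9.70 CPM), as in 24.5% of all tested genes. Both KO day 1 libraries (5.54 and 9.08 CPM) were above both KO monocyte libraries (4.36 and 4.68 CPM), as in 32.4%. The share of tested genes with both patterns was not computed. KO day 1 replicate 1 (5.54 CPM) is the library that stood apart and held Nr4a3 reads. The genotype difference in that change of Idi1 was 1.04 ± 0.60 on the log2 scale, with edgeR's adjusted p = 1.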

How the results depend on the processing

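Of 5304 values of single members under alternatives, 4985 kept their side of the threshold, 160 lost a call and 159 gained one. The sign changed in 0 of the 918 values called in either fit and in 355 of the 4386 called in neither. Counts of members called are given as higher or lower.
Without the low-count filter, WT day 1 gave 2 lower, WT day 2 against monocytes 1 lower, KO day 1 3 higher and 2 lower, KO day 2 against day 1 19 higher, KO against WT monocytes 1 higher, and the genotype differences from monocytes to day 1 and from day 1 to day 2 1 lower each.
Unstranded counts gave 1 lower in WT day 2 against monocytes and a median of -0.084 for KO day 1.
The replicate block by experiment gave 2 lower at WT day 1 and 2 higher at KO day 1, the block by number 1 lower in WT day 2 against monocytes and 11 higher in KO day 2 against day 1; other counts under these blocks stayed within 1.5 times.
In the compared groups only, WT day 1 gave 1 higher and 0 lower, WT day 2 against monocytes 11, KO day 1 1 higher, KO day 2 against day 1 1, KO day 2 against monocytes 20, KO against WT day 2 0 lower and the genotype difference from monocytes to day 2 0 lower; with a replicate block added there, after the data were seen, WT day 1 gave 3 lower, KO day 1 1 higher and 2 lower with a median of -0.0029, KO against WT day 2 2 higher and 2 lower, and the genotype difference 0.
Without both libraries that stood apart, WT day 1 gave 3 higher and 0 lower, KO day 1 2 higher with a median of -0.14, KO day 2 against day 1 11 higher, and the genotype difference from monocytes to day 2 0 lower.
DESeq2 gave 2 lower at WT day 1, 1 lower in WT day 2 against monocytes, 1 higher at KO day 1, 18 higher in KO day 2 against day 1, 20 in KO day 2 against monocytes and 1 lower for the genotype difference from day 1 to day 2. Over all tested genes and both directions, DESeq2 called 4072, 4199, 2988, 1057, 3455 and 24 genes in these comparisons, in that order. The main edgeR fit called 3022, 3166, 1942, 287, 2459 and 0. For the other alternatives the share of all tested genes called was not computed, so those counts have no background.
Leaving out each library in turn gave 1 to 9 higher and 0 to 2 lower at WT day 1 (median -0.15 to 0.56), 14 to 19 higher and 0 to 1 lower in WT day 2 against monocytes, 2 to 8 higher in WT day 2 against day 1, 0 to 1 lower at KO day 1 (median -0.14 to 0.20), 1 to 2 higher in KO day 2 against day 1, 5 to 14 in KO day 2 against monocytes, 0 to 1 higher in KO against WT monocytes, 0 to 0 lower in KO against WT day 2 (median -0.21 to 0.20) and 0 to 1 lower for the genotype difference from monocytes to day 2. The medians turned sign without WT day 1 replicate 1 (-0.15), KO monocytes replicate 1 (-0.0070), KO day 1 replicate 1 (-0.14), WT day 2 replicate 1 (0.20) and KO day 2 replicate 1 (0.066). The cause was not tested. With 2 libraries per group, members at few reads (Fdps, Fads2) had standard errors near 1 on the log2 scale, which limits what could be called.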
